A study of Homo sapiens with 6 samples.

Results

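Messenger RNA of 9 cytokine receptor genes and of the antisense transcript IL10RB-DT was examined after knockdown of PUS1, an enzyme that converts uridine to pseudouridine in RNA, in a breast cancer cell line. The 10 genes were the rows of the deposited table, which lists 60605 genes, with the symbols IL31RA, IL27RA, IL6ST, OSMR, LIFR, IL6R, IL4R, IL10RB, IL10RB-DT and IFNAR2. They had been picked with the knockdown comparison of these libraries in view, so no p-value is given for them, and where their fitted values are counted against the call rule used for all genes, the count is a description and not evidence. MDA-MB-231, a line derived from a triple-negative breast tumour, was the host in all 6 libraries. The 3 shControl libraries came from cells carrying a lentiviral control hairpin (shRNA control in the labels), and the 3 shPUS1 libraries from cells carrying a hairpin against PUS1. Both kinds of cells had been made stable by puromycin selection. The deposited columns of the knockdown are named PUS1-knockdown-2 followed by the replicate number, and no source used here says whether that 2 names a hairpin. The titles call the libraries biological replicates without saying whether they were separate selections, so the p-values given for other genes measure the spread between these libraries, which may be technical.

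Class I cytokine receptors are single-pass membrane proteins without kinase activity of their own. Ligand binding brings receptor chains together, Janus kinases bound to their tails phosphorylate the chains, and STAT proteins dock there and move to the nucleus to switch on target genes. IL6ST, also called gp130, is the signalling chain shared by interleukin-6, interleukin-11, leukaemia inhibitory factor, oncostatin M and interleukin-27, and the autocrine interleukin-6 loop is well known in triple-negative breast cancer cells. IL6R, LIFR, OSMR and IL27RA give gp130 its ligand specificity, while IL31RA, a gp130-like chain, pairs with OSMR for interleukin-31. IL10RB and IFNAR2 are class II chains. IL10RB is shared by the receptors for interleukin-10, interleukin-22, interleukin-26 and the lambda interferons, and IFNAR2 is a chain of the type I interferon receptor.

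The start regions of IL10RB, IL10RB-DT and IL27RA are shown because IL10RB-DT and IL27RA were among the 3 genes furthest from the controls and because IL10RB and IL10RB-DT start head to head. Each window holds 300 bases, 250 before and 50 after the RefSeq start on GRCh38.p14. They are IL10RB at chr21:33266117-33266416 on the plus strand, IL10RB-DT at chr21:33266211-33266510 on the minus strand and IL27RA at chr19:14031512-14031811 on the plus strand. Capitals mark matches to TTCNNNGAA, the letters bound by STAT dimers.
IL10RB: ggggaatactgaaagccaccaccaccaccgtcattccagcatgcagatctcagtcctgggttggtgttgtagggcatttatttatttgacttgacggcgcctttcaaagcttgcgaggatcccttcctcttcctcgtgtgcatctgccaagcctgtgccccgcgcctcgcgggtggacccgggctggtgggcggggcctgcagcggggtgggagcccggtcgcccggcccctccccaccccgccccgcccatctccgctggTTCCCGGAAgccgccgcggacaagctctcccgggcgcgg
IL10RB-DT: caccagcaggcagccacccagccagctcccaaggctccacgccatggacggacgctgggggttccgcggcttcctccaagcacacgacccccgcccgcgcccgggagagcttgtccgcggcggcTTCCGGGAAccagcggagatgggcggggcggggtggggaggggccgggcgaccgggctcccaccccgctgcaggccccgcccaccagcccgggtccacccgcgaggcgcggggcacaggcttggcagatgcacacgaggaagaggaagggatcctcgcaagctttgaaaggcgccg
IL27RA: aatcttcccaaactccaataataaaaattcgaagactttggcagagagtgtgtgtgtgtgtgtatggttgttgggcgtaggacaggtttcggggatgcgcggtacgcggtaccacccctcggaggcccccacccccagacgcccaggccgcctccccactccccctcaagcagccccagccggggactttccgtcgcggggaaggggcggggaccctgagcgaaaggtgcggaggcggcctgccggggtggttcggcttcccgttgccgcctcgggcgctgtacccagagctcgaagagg
The IL10RB and IL10RB-DT windows share 206 bases, and the capitals in them are a single site read from opposite strands. In IL10RB it begins 11 bases after the start, and in IL10RB-DT 126 bases before it (position -126). The letters TTCNNNGAA, searched on both strands, occur in 7.66% of the 35116 RefSeq windows of this length. Among the 10 windows of the 8 genes that had one, 4 hold a match: the pair above and 2 of the 3 LIFR windows, which are not printed. The site in IL10RB overlaps a match to CCGGAAG, the ETS family core, which 10.3% of all windows hold. Matches to the GC box letters GGGCGG number 3 in the IL10RB window, 4 in the IL10RB-DT window and 1 in the IL27RA window, against at least 1 in 45% of all windows. These are descriptions of letters. Nothing about binding was measured.

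Depth was 14241505 to 19625998 estimated counts per library, and poly(A) RNA was sequenced. Levels are given as FPKM, estimated counts per kilobase of exon scaled to the library total, which allows genes of different length to be set side by side as far as the length holds. For IL31RA the deposited exonic length was 11428 bases, against 4576 bases in GENCODE 29, so its rank among the genes and its ratio to OSMR depend on which length is used, while its difference between groups does not. PUS1 (ENSG00000177192) stood at 2.57, 4.66 and 2.18 FPKM in shControl and at 1.13, 0.95 and 0.93 FPKM in shPUS1, a log2 fold change of -1.64 ± 0.32 (SE, n = 3 and 3, edgeR adjusted p = 0.0462), and without shControl replicate 2 it was -1.20 (adjusted p = 0.00311). The adjusted p rose above 0.05 without shControl replicate 1 (0.0905) and without any of the shPUS1 replicates (0.192 to 0.253). Replicate 2 of shControl stood apart: across genes its log2 levels correlated at r = 0.951 and 0.952 with the other shControl libraries, which correlated at r = 0.981 with each other, and the shPUS1 libraries correlated at r = 0.987 to 0.991 (descriptions over genes within pairs of libraries). Values without that library are given for PUS1 and the chosen receptor genes, and elsewhere where they change a call or a direction. The fit without it called 18.6% of all genes tested at an adjusted p under 0.05, against 2.58% with all libraries. All 6 markers of the line (VIM, CD44, AXL, CAV1, LAMB3 and KRT18) were present, at 63.8 to 498 FPKM. Of the 7 luminal and hormone receptor markers, ESR1, PGR and FOXA1 stayed at or under 0.04 FPKM and CDH1 at or under 0.18 FPKM, while ERBB2 was at 4.93 to 6.91, EPCAM at 2.21 to 3.12 and GATA3 at 1.55 to 2.16 FPKM. Of the 8 blood cell markers, CD68, a lysosomal protein, was at 27.8 to 42.6 FPKM and CD14 at 1.17 to 2.95 FPKM, and the other 6 were at or under 0.08 FPKM. For VIM the log2 fold change was -0.50 ± 0.14 (adjusted p = 0.0873), for AXL -0.60 ± 0.14 (adjusted p = 0.0623) and for CD68 -0.39 (adjusted p = 0.1). Without shControl replicate 2 all 3 were lower by the adjusted p alone (VIM -0.40, adjusted p = 0.0305, AXL -0.48, adjusted p = 0.014, CD68 -0.42, adjusted p = 0.0235). Their part in the receptor values was not tested. In bulk RNA, fewer cells that express a gene and less RNA per cell cannot be told apart.

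Of the 10 genes, all 10 entered the fit across 14748 genes. IL10RB-DT, at 0 in every shControl library, passed the low-count filter only through its shPUS1 counts. Its place in the counts below was therefore set by that group. By fitted value, IL31RA, IL27RA and IL10RB-DT lay beyond the threshold used for all genes (edgeR adjusted p below 0.05 together with a log2 fold change of 1 or more in size), all higher in shPUS1, and none of the 10 was past it in the lower direction. Over all genes tested, 0.888% were past it in the higher direction and 0.481% in the lower direction, and 1.74% were higher by the adjusted p alone. For 6 of the 10, every shPUS1 library lay above every shControl library in CPM (counts scaled to library size by TMM), which was so for 18.8% of all genes tested, while 36.1% had no overlap in either direction. As a median, the log2 fold change stood at 0.51 for the 10 genes and at -0.03 for all genes tested. Since the genes were chosen on this contrast, nothing is read from these counts.

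**Figure D1:**
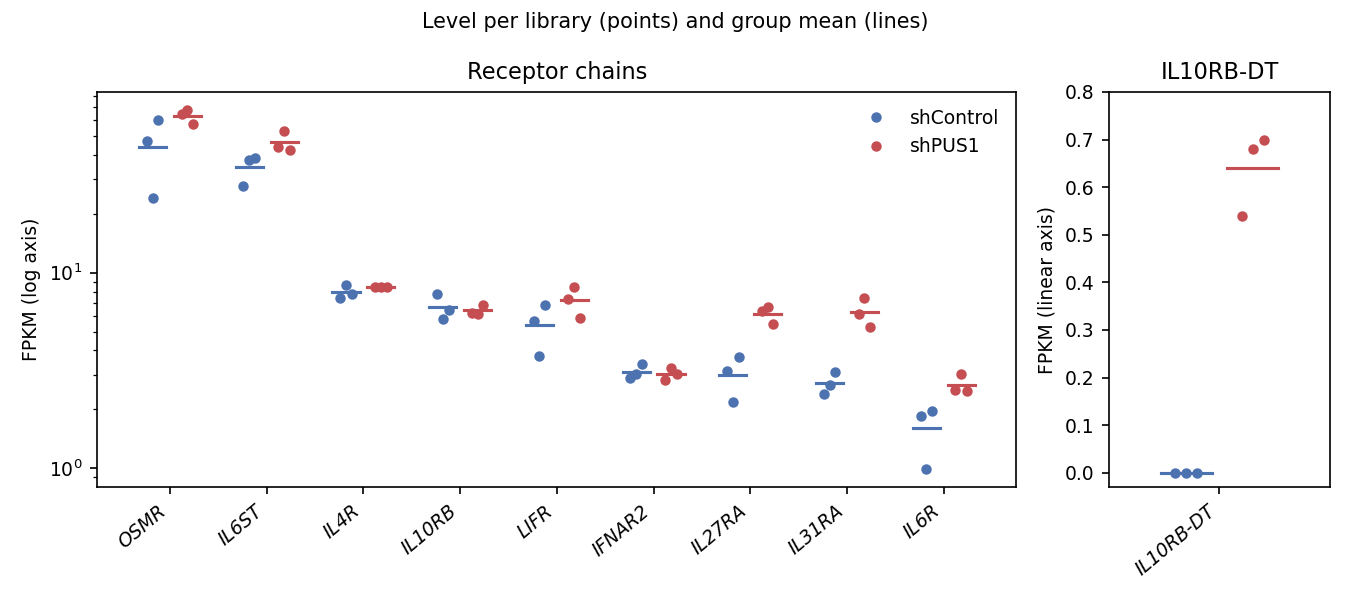
FPKM per library (points) and group mean (lines) for the 9 receptor genes on a log axis (left) and for IL10RB-DT on a linear axis (right), 3 shControl and 3 shPUS1 libraries. IL31RA, IL27RA and IL6R lie higher in each shPUS1 library than in any shControl library, IL4R, IL10RB and IFNAR2 overlap between the groups, and IL10RB-DT is at 0 in shControl.

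Levels spanned a wide range. In shControl the order of mean FPKM was OSMR, IL6ST, IL4R, IL10RB, LIFR, IFNAR2, IL27RA, IL31RA, IL6R and IL10RB-DT. Neighbours in this order whose libraries did not overlap were IL6ST over IL4R, LIFR over IFNAR2, IL31RA over IL6R and IL6R over IL10RB-DT. The other neighbours were not separated beyond their spread. By median, IL27RA (3.14 FPKM) was already above IFNAR2 (3.02 FPKM) in shControl, with overlapping libraries. In shPUS1, IL31RA and IL27RA stood above IFNAR2, with IL27RA and IFNAR2 not overlapping, while OSMR, IL6ST and IL4R remained at the top in the same order.

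Among the shared chains, IL6ST (ENSG00000134352, chromosome 5, 55935095-55995022, minus strand) was read at 27.58, 37.44 and 38.55 FPKM in shControl replicates 1, 2 and 3 and at 43.82, 52.76 and 42.47 FPKM in the shPUS1 replicates. All 3 shPUS1 libraries were above all 3 shControl libraries. The means were 34.5 ± 6.04 and 46.4 ± 5.59 FPKM (SD, n = 3 each), and the log2 fold change was 0.45 ± 0.17 (SE), or 0.53 without shControl replicate 2. OSMR (ENSG00000145623), the chain that binds oncostatin M with gp130 and interleukin-31 with IL31RA, was read at 47.12, 24.11 and 60.06 FPKM in shControl and at 64.53, 67.86 and 57.84 FPKM in shPUS1. Its groups overlapped in FPKM, and replicate 2 gave the lowest shControl value. The log2 fold change was 0.57 ± 0.28 (SE), and it was 0.29 without that replicate.

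IL31RA (ENSG00000164509, chromosome 5, 55851357-55922854, plus strand) encodes the ligand-binding chain for interleukin-31, the itch cytokine of T cells. Its values were 2.4, 2.66 and 3.09 FPKM in shControl and 6.13, 7.41 and 5.26 FPKM in shPUS1, from 411 to 596 and 1029 to 1553 estimated counts. The groups lay well apart, and shControl replicate 2 was in the middle of its group. The means were 2.72 ± 0.349 and 6.27 ± 1.08 FPKM (SD, n = 3 each), and the fitted difference was 1.23 ± 0.17 on the log2 scale (SE), and also 1.23 without shControl replicate 2. IL31RA and IL6ST lie next to each other on chromosome 5 with their 3′ ends 12241 bases apart.

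IL27RA (ENSG00000104998, chromosome 19, 14031762-14053218, plus strand), the chain private to interleukin-27, was read at 3.14, 2.18 and 3.69 FPKM in shControl and at 6.36, 6.69 and 5.45 FPKM in shPUS1. These values rest on 126 to 155 and 275 to 362 estimated counts. Every shPUS1 library was above every shControl library, and replicate 2 was the lowest control. The means were 3.003 ± 0.764 and 6.17 ± 0.642 FPKM (SD, n = 3 each), the log2 fold change was 1.07 ± 0.21 (SE), and without shControl replicate 2 it was 0.9, under the fold threshold.

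Of the chains IL6R and LIFR, IL6R had the lower level. IL6R (ENSG00000160712), which binds interleukin-6 itself and is also shed as a soluble receptor, was read at 1.85, 0.99 and 1.96 FPKM in shControl and at 2.52, 3.02 and 2.48 FPKM in shPUS1. The groups did not overlap, with a log2 fold change of 0.78 ± 0.25 (SE), or 0.53 without shControl replicate 2. LIFR (ENSG00000113594), the chain for leukaemia inhibitory factor, was read at 5.65, 3.74 and 6.81 FPKM in shControl and at 7.29, 8.48 and 5.85 FPKM in shPUS1. Its groups overlapped, and the log2 fold change of 0.45 ± 0.22 (SE) was 0.25 without that replicate. OSMR and LIFR lie on chromosome 5 with their starts 237504 bases apart and are read in opposite directions.

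IL4R (ENSG00000077238, chromosome 16), which pairs with IL13RA1 or with the common gamma chain, differed little between groups. It was read at 7.46, 8.69 and 7.8 FPKM in shControl and at 8.43, 8.4 and 8.41 FPKM in shPUS1, with overlapping groups and a log2 fold change of 0.1 ± 0.13 (SE), or 0.18 without shControl replicate 2. In shPUS1 the 3 values were nearly equal (SD 0.0153 FPKM), against an SD of 0.635 FPKM in shControl.

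**Figure D2:**
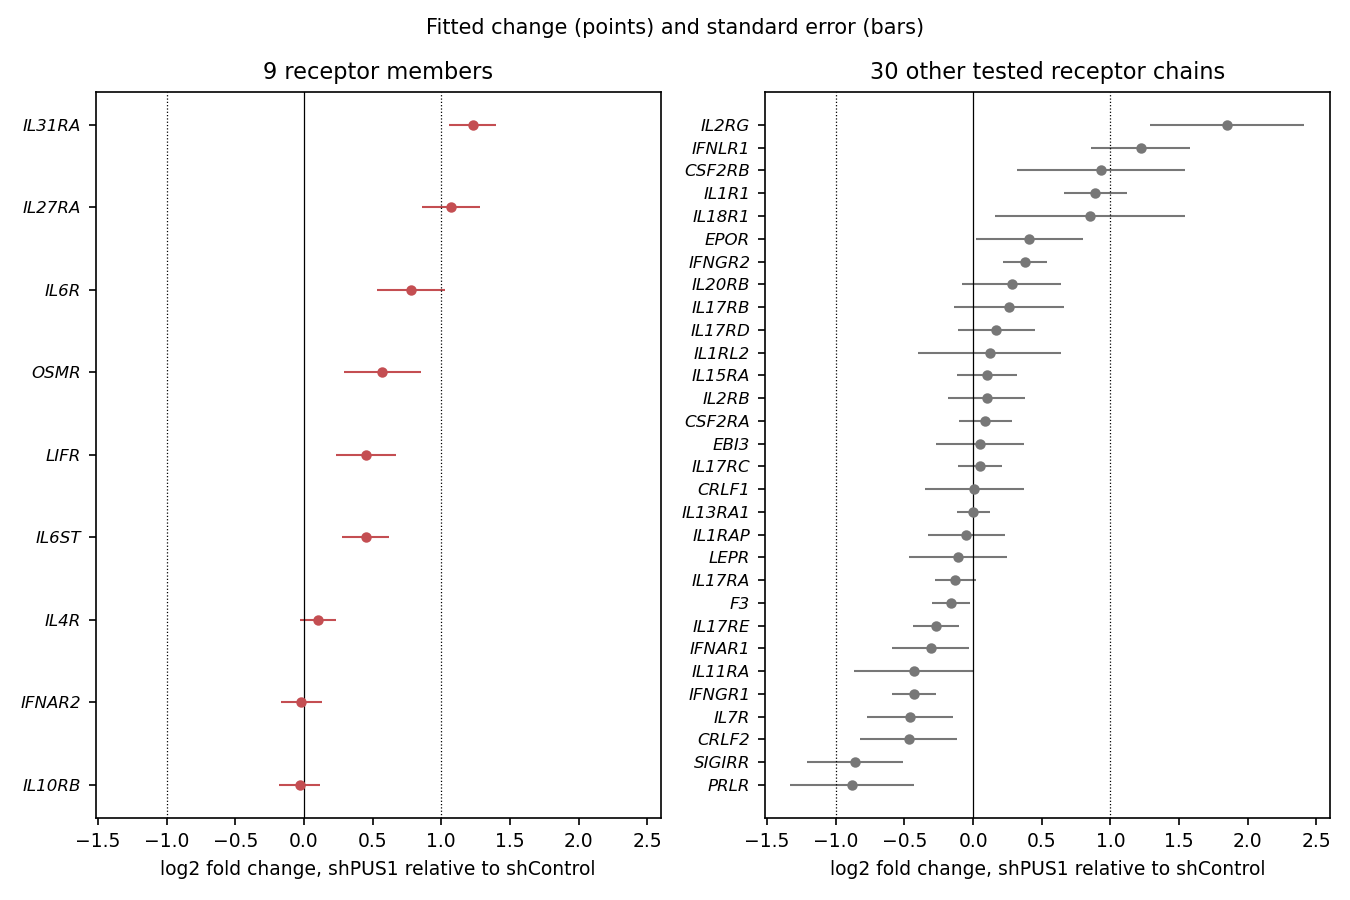
Fitted log2 fold change of shPUS1 relative to shControl (points) with its standard error (bars) for the 9 receptor genes chosen (left) and the 30 other tested receptor chains (right), with dotted lines at -1 and 1. IL31RA (1.23) and IL27RA (1.07) lie beyond 1 on the left. On the right IL2RG (1.85) and IFNLR1 (1.22) lie beyond 1 but had adjusted p above 0.05, and the others spread on both sides of 0.

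On chromosome 21 the class II receptor genes lie in a cluster. IL10RB (ENSG00000243646, 33266367-33310187, plus strand) was read at 7.8, 5.77 and 6.46 FPKM in shControl and at 6.25, 6.15 and 6.85 FPKM in shPUS1. IFNAR2 (ENSG00000159110, 33205282-33265675, plus strand) was read at 2.91, 3.02 and 3.43 FPKM in shControl and at 2.82, 3.27 and 3.02 FPKM in shPUS1. Both overlapped between groups, with log2 fold changes of -0.03 ± 0.15 for IL10RB and -0.02 ± 0.15 for IFNAR2 (SE). Without shControl replicate 2 they were -0.11 and -0.02.

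IL10RB-DT (ENSG00000223799, 33263873-33266260, minus strand) is the divergent antisense transcript that starts 107 bases from the IL10RB start and runs back over the 3′ end of IFNAR2. It was at 0 in the 3 shControl libraries and at 0.54, 0.68 and 0.7 FPKM in the shPUS1 libraries, from 21.87, 27.88 and 26.67 estimated counts. The groups did not overlap, and the level in shPUS1 stayed below that of the other 9 genes. Over the group, 76.4 estimated counts in shPUS1 stood against 0 in shControl, and set against a floor of 3 counts over the shControl group (0.0612 CPM) the 1.44 CPM of shPUS1 was at least 23.5-fold higher. The floor covers counting error only. Of all genes in the table, 3 were at 0 in each shControl library and at 10 or more estimated counts in each shPUS1 library, and 1 gene showed the reverse. Only 1 of those 3 had whole counts in each shPUS1 library, and it was not IL10RB-DT. The counts of the reverse gene were not all whole.

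The reading of IL10RB-DT rests on how counts were shared between overlapping genes. In the GENCODE 29 annotation, 1803 of its exonic bases, or 80.9%, also belong to exons of IFNAR2 on the opposite strand, leaving 425 bases of its own. The library protocol in the labels describes no step that marks strand, and the strand setting of the counting is not given in the sources used here, so reads from IL10RB-DT and from IFNAR2 over the shared bases cannot be told apart. A read-through gene of IFNAR2 and IL10RB (ENSG00000249624) shares exons with both and was read at 38.6, 33.8 and 20.6 estimated counts in shControl and 28.6, 32.3 and 40.5 in shPUS1. The estimated counts of these genes were mostly not whole numbers. The sum of IFNAR2, IL10RB-DT, IL10RB and the read-through gene was whole in 6 of 6 libraries (tolerance 0.01 counts). This sum was 783, 838 and 677 counts in shControl and 819, 865 and 852 counts in shPUS1, a log2 fold change of 0.02 ± 0.12 (SE). IFNAR2 with IL10RB-DT alone summed to 214.8, 291.3 and 240 estimated counts in shControl and to 274.4, 322.2 and 281.1 in shPUS1, a log2 fold change of 0.11 ± 0.15 (SE). After scaling to library size both sums overlapped between groups, whereas IL10RB-DT alone did not. What part the division of counts had in the IL10RB-DT values was not tested.

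**Figure D3:**
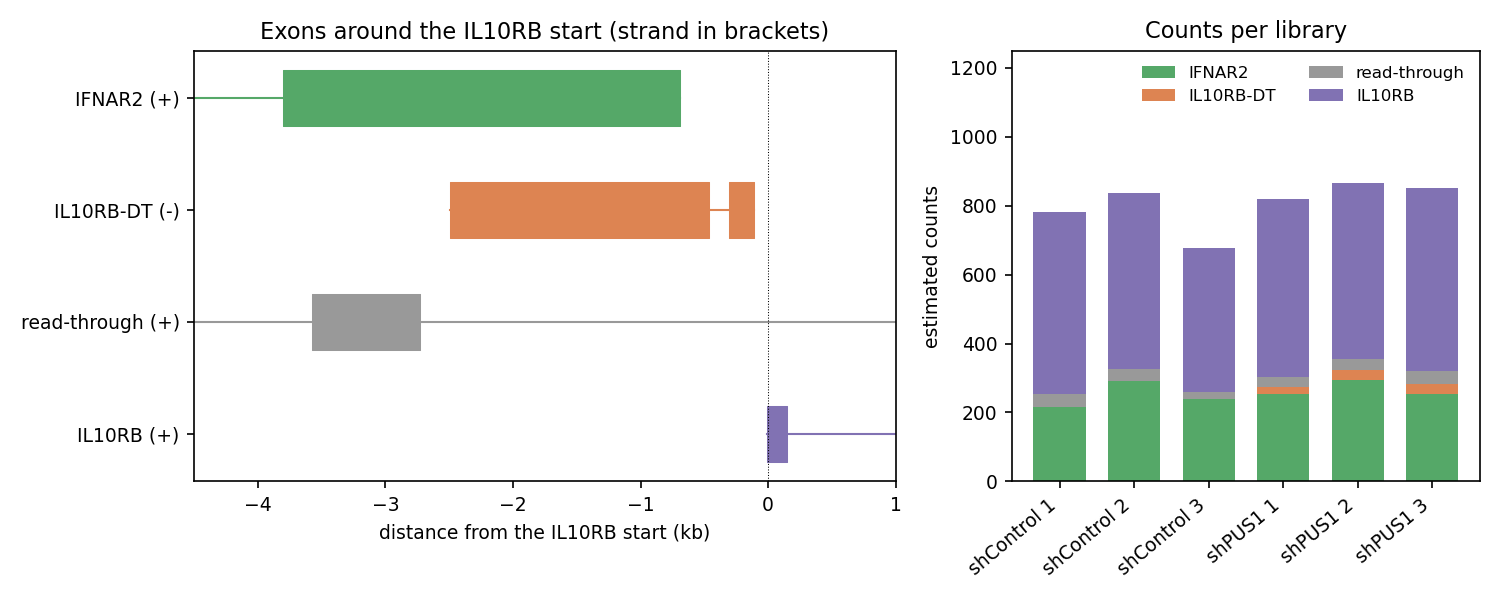
Left, exons (boxes) of IFNAR2, IL10RB-DT, the read-through gene and IL10RB by distance from the IL10RB start in kilobases, with the strand in brackets. Right, estimated counts per library stacked by gene. IL10RB-DT lies mostly over the IFNAR2 exon and makes up 21.87 to 27.88 counts of the shPUS1 stacks of 819 to 865 counts. It is at 0 in the shControl stacks of 677 to 838 counts.

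Other genes among the 10 also shared exons with a neighbour, to a smaller extent. The shared share was 3.19% of the exonic bases of OSMR (with RICTOR), 5.3% of LIFR (with LIFR-AS1), 8.58% of IL6ST (with ENSG00000262211) and 5.75% of IL4R (with ENSG00000274092). RICTOR, a subunit of the mTORC2 kinase complex, was read at 7.54, 4.83 and 11.67 FPKM in shControl and at 13.67, 16.3 and 12.41 FPKM in shPUS1 (log2 fold change 0.85 ± 0.28, adjusted p = 0.117). OSMR and RICTOR were thus both lowest in shControl replicate 2, and their share of common reads was not tested.

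Receptor function depends on partners, so the FPKM of chains that pair was compared as ratios within each library. IL6ST to IL27RA was 8.78, 17.2 and 10.4 in shControl and 6.89, 7.89 and 7.79 in shPUS1, lower in each shPUS1 library. Both genes had been chosen with this contrast in view. IL27RA had the larger fitted difference (log2 fold change 1.07, against 0.45 for IL6ST), so the lower ratio restates those values. IL10RB to IFNLR1, the partners for lambda interferon, was 11.6, 18.6 and 12.2 in shControl and 5.21, 4.21 and 8.78 in shPUS1, also without overlap, with IFNLR1 at only 30 to 132 estimated counts. The remaining 7 ratios overlapped between groups. IL6ST to IL6R was 14.9, 37.8 and 19.7 in shControl and 17.4, 17.5 and 17.1 in shPUS1, and OSMR to IL31RA was 19.6, 9.06 and 19.4 in shControl and 10.5, 9.16 and 11 in shPUS1. In each ratio printed here, also those without overlap, shControl replicate 2 was the library far from its group. Every ratio has a chosen gene as its numerator, so the ratios are descriptions and not evidence. For single genes, 36.1% of all tested had no overlap in CPM in either direction, and no such share was computed for ratios. These ratios compare RNA levels, not receptors on the cell surface.

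**Figure D4:**
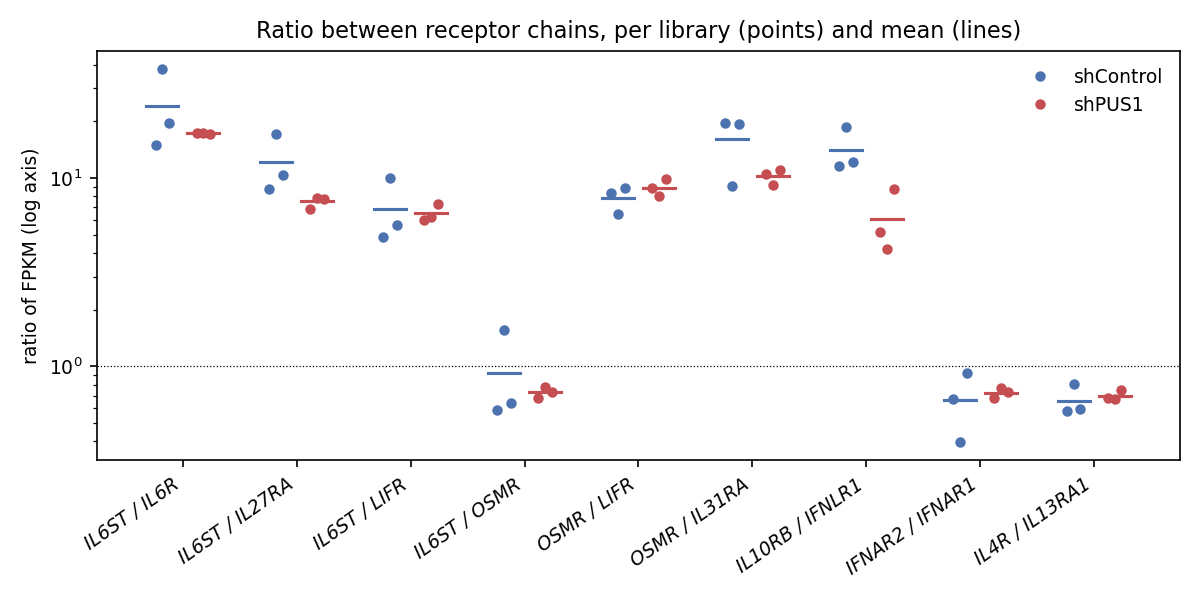
Ratio of FPKM between pairs of receptor chains on a log axis, per library (points) with group means (lines), for 3 shControl and 3 shPUS1 libraries; the dotted line marks equal levels. Of the 9 ratios, IL6ST to IL27RA and IL10RB to IFNLR1 have no overlap between groups. This is a description, since every numerator is a gene chosen on this contrast. The shControl points spread more widely than the shPUS1 points for IL6ST to IL6R and IL6ST to OSMR.

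The remaining receptor chains did not pass the threshold in either direction. Of the other class I chains, 14 of 27 were tested and 0 passed (1 at an unadjusted p under 0.05, median log2 fold change 0.03). Of the other class II chains, 6 of 10 were tested and 0 passed (3 at an unadjusted p under 0.05, median 0.06). Of the interleukin-1 and interleukin-17 receptor chains, 10 of 13 were tested and 0 passed (2 at an unadjusted p under 0.05, median 0.08). Over all genes tested, 1.37% passed in either direction and 3758 of 14748 had an unadjusted p under 0.05. DESeq2, run as an alternative, put 2 of these chains past the threshold, IL2RG and IFNLR1.

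Among the abundant chains, IL7R, which binds interleukin-7 and thymic stromal lymphopoietin, was read at 44.96, 17.58 and 44.98 FPKM in shControl and at 26.39, 24.72 and 24.91 FPKM in shPUS1. The log2 fold change was -0.46 ± 0.31 (adjusted p = 0.367), but -0.79 with an adjusted p of 0.00151 without shControl replicate 2. For IL13RA1, the partner of IL4R, the log2 fold change was 0.00 ± 0.12 (adjusted p = 0.987), and for CSF2RA, the GM-CSF receptor alpha chain, it was 0.09 ± 0.19 (adjusted p = 0.783). F3, tissue factor, a class II family member that starts coagulation, was at 165 to 230 FPKM in shControl and 170 to 188 FPKM in shPUS1 (-0.16 ± 0.14, adjusted p = 0.471).

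IFNGR2, which signals for interferon gamma and lies 93226 bases beyond the end of IL10RB, was read at 23.71, 15.79 and 22.62 FPKM in shControl and at 26.96, 25.9 and 26.22 FPKM in shPUS1 (0.38 ± 0.16, adjusted p = 0.184). For its partner IFNGR1 the log2 fold change was -0.43 ± 0.16 (adjusted p = 0.155), and without shControl replicate 2 it was -0.55 (adjusted p = 0.0214). IFNAR1, the partner of IFNAR2, lies 14242 bases beyond the end of IL10RB and was read at 4.35, 7.58 and 3.7 FPKM in shControl and at 4.15, 4.25 and 4.13 FPKM in shPUS1 (-0.31 ± 0.28, adjusted p = 0.497), and the direction turned without shControl replicate 2 (0.09, adjusted p = 0.579). IL10RA, the ligand-binding chain that IL10RB needs for interleukin-10, had 0 counts in all 6 libraries and was not detected at this depth.

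Among chains of low or moderate level, IL2RG, IFNLR1 and IL1R1 were higher in each shPUS1 library without passing the test. IL2RG, the common gamma chain, was read at 0.65, 0.09 and 0.53 FPKM in shControl and at 1.21, 1.52 and 1.67 FPKM in shPUS1 (1.85 ± 0.56, adjusted p = 0.102). IFNLR1 was read at 0.67, 0.31 and 0.53 FPKM in shControl and at 1.2, 1.46 and 0.78 FPKM in shPUS1 (1.22 ± 0.36, adjusted p = 0.0944). IL1R1, the interleukin-1 receptor, was read at 4.15, 2.3 and 4.42 FPKM in shControl and at 6.48, 7.4 and 5.76 FPKM in shPUS1 (0.89 ± 0.23, adjusted p = 0.0792). In all 3 genes replicate 2 was the lowest control. Without it IL2RG was past the threshold (1.34, adjusted p = 0.0131), IFNLR1 was not (0.97, adjusted p = 0.0523), and IL1R1 passed by the adjusted p alone (0.65, adjusted p = 0.01).

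Of the ligands, 6 of 23 were tested and 0 passed the threshold (1 at an unadjusted p under 0.05, median log2 fold change -0.06). DESeq2 also called none. For this list and those below, the values over all genes were 1.37% past the threshold and 3758 of 14748 at an unadjusted p under 0.05. RNA of some gp130 cytokines was present. IL6 was read at 31.31, 3.67 and 24.71 FPKM in shControl and at 13.47, 16.69 and 14.41 FPKM in shPUS1, and IL11 at 62.35, 13.07 and 52.96 FPKM in shControl and at 33.61, 35.38 and 33.33 FPKM in shPUS1. In both, shControl replicate 2 was below all shPUS1 libraries and the other controls were above them. With all libraries the log2 fold change was -0.38 ± 0.6 for IL6 (adjusted p = 0.718) and -0.29 ± 0.46 for IL11 (adjusted p = 0.718). Without shControl replicate 2 it was -0.88 for IL6 (adjusted p = 0.00525) and -0.72 for IL11 (adjusted p = 0.00408), in a fit that called 18.6% of all genes tested. The direction turned without shControl replicate 1 (IL6 0.12, adjusted p = 0.925, IL11 0.09, adjusted p = 0.926). Leaving out any library other than shControl replicate 2 gave an adjusted p above 0.05 for both genes.

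LIF was read at 12.14, 11.14 and 13.31 FPKM in shControl and at 14.48, 13.98 and 12.12 FPKM in shPUS1 (0.17 ± 0.13, adjusted p = 0.419). CLCF1, a further gp130 cytokine, was at 5.45, 9.44 and 5.85 FPKM in shControl and at 11.56, 13.28 and 13.91 FPKM in shPUS1 (0.91 ± 0.25, adjusted p = 0.0834), and without shControl replicate 2 it was past the threshold (1.23, adjusted p = 0.00113). IL31, the ligand of IL31RA, and IL27, a subunit of interleukin-27, had 0 counts in all libraries, and OSM had at most 1 count. EBI3, the other subunit of interleukin-27, was at 1.35 to 2.19 FPKM (0.05, adjusted p = 0.929).

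Downstream of the receptors, 11 of 11 Janus kinase and STAT genes were tested and 0 passed (2 at an unadjusted p under 0.05, median log2 fold change -0.07). JAK1, the kinase that most of these chains use, was read at 12.95, 11.1 and 14.51 FPKM in shControl and at 17.3, 17.11 and 15.76 FPKM in shPUS1 (0.41 ± 0.12, adjusted p = 0.103), and without shControl replicate 2 the difference was 0.33 (adjusted p = 0.0453). For STAT3, the main transcription factor of gp130, the log2 fold change was 0.06 ± 0.16 (adjusted p = 0.823), and without that replicate it was -0.09 (adjusted p = 0.528). DESeq2 called none of the kinase, STAT, inhibitor or protease genes.

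Of 17 inhibitors of receptor signalling, 16 were tested and 0 passed both parts of the threshold, with a median log2 fold change of 0.04. An unadjusted p under 0.05 was found for 6 of the 16, and for 3758 of the 14748 genes tested in all. SOCS5, a suppressor of cytokine signalling known to act on IL4R, rose by the adjusted p alone: it was read at 11.16, 8.08 and 10.95 FPKM in shControl and at 16.53, 19.94 and 17.21 FPKM in shPUS1 (0.86 ± 0.15, adjusted p = 0.0385). By the adjusted p alone 2.58% of all genes tested were called, and SOCS5 was not called without shControl replicate 1 (adjusted p = 0.0872) or without any of the shPUS1 replicates (0.177 to 0.237). SOCS3, the feedback inhibitor that binds gp130, was at 14.29, 13.51 and 13.97 FPKM in shControl and 11.27, 11.63 and 11.76 FPKM in shPUS1 (-0.25 ± 0.12, adjusted p = 0.234). PTPN1, a phosphatase of Janus kinases, was at 51.92, 51.39 and 55.4 FPKM in shControl and 41.53, 39.46 and 40.58 FPKM in shPUS1 (-0.36 ± 0.11, adjusted p = 0.0952), and without shControl replicate 2 the adjusted p was 0.024. PTPN11, the phosphatase SHP2, differed on the log2 scale by 0.00 ± 0.12 (adjusted p = 0.986).

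Of 24 STAT3 and acute phase target genes, 18 were tested and 0 passed (4 at an unadjusted p under 0.05, median log2 fold change 0.16). SAA1, an acute phase protein, was read at 272, 112 and 262 FPKM in shControl and at 276, 269 and 277 FPKM in shPUS1 (0.38 ± 0.29, adjusted p = 0.424). CEBPB, a transcription factor of the acute phase, was at 111, 40.3 and 88.8 FPKM in shControl and 93.8, 99.4 and 102 FPKM in shPUS1 (0.33 ± 0.3, adjusted p = 0.509). In both, the difference was mostly that of shControl replicate 2, and without it the log2 fold change was 0.08 for SAA1 (adjusted p = 0.565) and 0.02 for CEBPB (adjusted p = 0.919). BCL2L1, an inhibitor of apoptosis, differed on the log2 scale by 0.38 ± 0.12 (adjusted p = 0.117), and without shControl replicate 2 by 0.47 (adjusted p = 0.00837). BCL6, a transcriptional repressor, was at 12.17, 3.53 and 13.84 FPKM in shControl and 20.27, 23.22 and 23.52 FPKM in shPUS1 (1.22 ± 0.41, adjusted p = 0.124), and was past the threshold in DESeq2 (adjusted p = 0.0209). Without shControl replicate 2 its log2 fold change was 0.82 (adjusted p = 0.00286).

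Receptor chains are also released from the membrane by proteases. The list held 6 genes for such proteases and their regulators. All 6 were tested, 0 passed both parts of the threshold and 2 had an unadjusted p under 0.05 (median log2 fold change 0.11). FURIN, a convertase that activates ADAM proteases, rose by the adjusted p alone: 19.28, 19.05 and 24.69 FPKM in shControl against 38.57, 41.26 and 35.33 FPKM in shPUS1 (0.90 ± 0.14, adjusted p = 0.0319). It too was not called without shControl replicate 1 (0.0872) or without any of the shPUS1 replicates (0.163 to 0.222). ADAM17, the main sheddase of IL6R, was at 10.19, 6.2 and 9.84 FPKM in shControl and at 12.62, 11.96 and 12.03 FPKM in shPUS1 (0.51 ± 0.18, adjusted p = 0.132), and without shControl replicate 2 the difference was 0.33 (adjusted p = 0.0381). ADAM10 differed on the log2 scale by 0.07 ± 0.12 (adjusted p = 0.711).

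Across the listed ligands, receptor chains, kinases, inhibitors, targets and proteases, the fit without shControl replicate 2 gave 11 of 87 tested genes as higher and 13 as lower at an adjusted p under 0.05. In that fit 18.6% of all genes tested were called in either direction, 9.8% as higher and 8.79% as lower. The lower genes there included BCL3, CEBPD, MYC, ICAM1 and LCN2 of the STAT3 and acute phase list, and the higher genes included SOCS2, SOCS5, BCL6 and BCL2L1 (named after their values were seen). Of the 9 receptor genes chosen, 5 had their lowest shControl FPKM in replicate 2 (IL27RA, OSMR, LIFR, IL6R and IL10RB), against 40.4% of all genes tested (in CPM).

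Genes next to the chosen ones were looked at within 100 kb. Of 69 such genes, 20 were tested, with a median log2 fold change of 0.18, against -0.03 over all genes tested. The threshold was passed by 1.37% of all genes tested, and by 1 of these 20 neighbours. This was NSMCE1, a subunit of the SMC5/6 DNA repair complex, 44896 bases from IL4R on chromosome 16, read at 6.25, 6.26 and 4.54 FPKM in shControl and at 2.75, 2.77 and 2.48 FPKM in shPUS1. Its log2 fold change was -1.07 ± 0.19 (adjusted p = 0.0413), and the call was lost without shControl replicate 1 (adjusted p = 0.0941), without any of the shPUS1 replicates (0.189 to 0.243) and, by its fold, without shControl replicate 2 (-0.98). OSMR-AS1, an antisense transcript on the minus strand that starts 29 bases from the OSMR start, was at 0.28 FPKM or less in all libraries (0.78 ± 0.53, adjusted p = 0.386).

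By the rule for likeness, the genes whose log2 CPM followed IL10RB-DT most closely over the 6 libraries were ENSG00000259753 (Pearson r = 0.999), TIMP3 (r = 0.999), an inhibitor of metalloproteinases and of ADAM17, and BAMBI (r = 0.997), a decoy receptor of the TGF-beta family. ENSG00000259753 was near the floor, at 0 FPKM in shControl and at 0.25, 0.33 and 0.29 FPKM in shPUS1, from 12.7 to 16.8 estimated counts. TIMP3 was read at 20.76, 18.98 and 20.16 FPKM in shControl and at 40.73, 44.24 and 42.83 FPKM in shPUS1, and BAMBI at 2.03, 2.12 and 2.07 FPKM in shControl and at 4.92, 5.56 and 5.87 FPKM in shPUS1. The 6 points fall into the 2 groups, so such an r is reached by any gene with tight groups that differ, and it is given as a description.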

How the data were processed

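Poly(A) RNA of MDA-MB-231 cells, 3 shControl and 3 shPUS1 libraries, was used. The deposited estimated counts per gene were made by the authors without normalization, and 22.4% to 24.0% of the values above 0 were not whole, so they were rounded for testing. The deposited FPKM values were made by the authors from these counts, exonic length and library total. The submitters' processing notes name HISAT2 and HTSeq 0.6.1. Genome build, annotation release and strand setting are not given in the sources used here, and of the table's genes found in GENCODE 29, 74.7% had the same start and end. Coordinates of genes are those deposited. Column names of the table (CTL and PUS1-knockdown-2, each followed by a replicate number) were matched to the sample titles.

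Genes kept by filterByExpr were scaled by TMM and tested with the edgeR 4.0.16 quasi-likelihood test in R 4.3.3, with Benjamini-Hochberg adjustment over 14748 genes. Calls needed an adjusted p below 0.05 and a log2 fold change of 1 or more in size. A prior count of 2 was used for log2 CPM. Simulated counts for this comparison, over 14748 genes, gave back 180 of 200 genes set to a log2 change of 1.5, with 6 false calls. The genes set to change were drawn from those with higher counts, and no simulated library stood apart. The recovery therefore does not cover low counts or a library like shControl replicate 2. DESeq2 1.42.0, limma 3.58.1 on log2(FPKM + 1) and log2(FPKM + 0.1) where mean FPKM reached 1, other scaling, no filter, no fold threshold, a replicate block and leaving out each library were alternatives. Sums over the IL10RB locus were added after the table was opened.

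The members and gene lists were chosen with earlier results of these data known. Named genes were the members, PUS1, receptor genes within 100 kb, up to 4 genes past the threshold per list or else the 3 with the highest mean FPKM, markers, and the 3 genes most like the member with the largest fitted change. IL2RG, IFNLR1, IFNAR1, CLCF1, SOCS3, BCL6, the listed genes called without shControl replicate 2, NSMCE1, RICTOR, OSMR-AS1 and genes with shared exons or partner roles were added after values were seen. Some genes that the rule names are not reported here. Protein-coding genes for the likeness rule were those of GENCODE 29. Promoter windows came from RefSeq (GRCh38.p14), matched by symbol for 8 of 10 genes. Python 3.11.15, numpy 2.4.6, pandas 2.3.3, scipy 1.17.1 and matplotlib 3.10.9 were used.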

Additional observations from a re-analysis of the deposited data

How the results depend on the processing

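With 3 libraries a group, calls near the threshold depended on single libraries. Genes past it in the higher and lower direction numbered 131 and 71, against 245 and 233 with DESeq2, 256 and 124 without a fold threshold, 293 and 243 without a low-count filter, 68 and 44 with limma on log2(FPKM + 0.1) and 71 and 16 on log2(FPKM + 1). Leaving out a library gave 0 to 246 higher and 0 to 251 lower genes, with the most without shControl replicate 2 and the fewest without shPUS1 replicate 3. The replicate block gave 18 higher genes, 0 lower genes and 0 of the 10 described genes. Libraries with the same replicate number did not deviate together (residual correlations -0.05, -0.03 and -0.19). With 3 libraries a group and shControl replicate 2 far from its group, these values cannot exclude a pairing. Of the 10 genes, 3 were past the threshold, 2 with DESeq2 (which gave IL10RB-DT no adjusted p), 2 with library totals alone, 1 with limma at a pseudocount of 0.1, 0 at 1 (IL10RB-DT had no limma value), and 0 to 3 when a library was left out: IL31RA and IL10RB-DT were past it without shControl replicate 2 or 3, IL27RA without shControl replicate 3, and none without shControl replicate 1 or any shPUS1 replicate. Other receptor chains past it numbered 0, but 2 with DESeq2 and 2 without the filter, and 0 to 1 with a library left out. Ligands and downstream genes numbered 0, but 1 with DESeq2, 2 without a fold threshold, 1 without the filter, and 0 to 2 with a library left out. No alternative turned the direction of IL31RA, IL27RA or IL10RB-DT, nor that of IL6ST, OSMR, LIFR, IL6R or IL4R. The direction of IL10RB and IFNAR2 turned in some. All alternatives reuse the libraries with which the genes were picked, so a kept direction is a description and not evidence. IL31RA ranged from 0.96 to 1.34 and IL27RA from 0.85 to 1.22 on the log2 scale over the alternatives. Counts of 0 for ligands are limited by depth.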
